A study of Mus musculus with 18 samples.

Results

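The transcripts of the mitochondrial genome were taken as every gene whose GENCODE mouse symbol begins with mt-, which gave 37 of the 52230 genes in the tables. Of these 37 genes, 13 encode proteins, 2 encode ribosomal RNAs (rRNA) and 22 encode transfer RNAs (tRNA). The livers came from 18 mice of a Gckr knock-in line on standard rodent diet, in which a proline of the glucokinase regulatory protein (GKRP) is kept on both alleles (PP) or is replaced by a leucine on both (LL). There were 4 male PP mice aged 9 to 14 wk, 4 male LL mice aged 13 to 14 wk, 5 female PP mice aged 9 to 14 wk and 5 female LL mice aged 11 to 14 wk by the sample labels, with 1 RNA-sequencing library per mouse. The labels name no promoter or cell type that would restrict the knock-in, and they do not say whether mice of a group were littermates.

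The mitochondrial genome is a small circle that is read from both strands into long precursor RNAs, out of which the tRNAs are cut so that the mRNAs and rRNAs between them are set free. All of its mRNAs encode subunits of the respiratory chain or of the ATP synthase (complexes I, III, IV and V), which in hepatocytes supply the ATP for gluconeogenesis, urea synthesis and lipid synthesis. The other subunits, and every protein that copies, transcribes, cuts or translates the mitochondrial genome, are encoded in the nucleus. Pieces of mitochondrial DNA have also been inserted into the nuclear chromosomes, where they stand as pseudogenes.

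Of the 37 genes on the 16299 bases of chrM (build GRCm39), 28 are annotated on the plus strand and 9, mt-Nd6 and 8 tRNA genes, on the minus strand. In all 18 livers the 13 mRNA genes and 2 rRNA genes were measured well above the count limit, whereas none of the 22 tRNA genes reached 10 counts in any library. The 37 genes together held from 8.51% to 17.9% of the estimated counts of a library. Libraries held 3794671 to 6613905 estimated counts, so that counting error was small for the mRNAs and large for the tRNAs. The 6 hepatocyte markers summed to 71125 to 190137 CPM (counts scaled to a common library total) in all libraries, as the label liver implies, whereas the markers of muscle, another tissue rich in mitochondria, summed to 0.502 CPM at most with Myh6, Acta1, Ckm and Mb at 0 throughout. The 3 markers of brown adipocytes (Ucp1, Cidea and Adipoq) summed to 0.207 CPM at most, with Cidea and Adipoq at 0 in every library.

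Several mitochondrial genes have near-identical nuclear copies. On chr1:24650616-24655278, minus strand, 7 pseudogenes that follow each other carry the same order of genes as chrM from mt-Co1 to mt-Nd4, and each shared 97.2% to 100% of its 31-base words with the mitochondrial transcripts. Atp6-ps, Gm28661 (copy of mt-Co2), Gm28437 (mt-Co3), Gm10222 (mt-Nd4l) and Gm28439 (mt-Nd4) had 0 differences over their full annotated length of 678, 681, 783, 294 and 876 bases. Gm28438 differed from mt-Nd3 at 1 of 345 aligned bases and Gm29216 from mt-Co1 at 6 of 492. The starts of these last copies are shown because they hold every aligned base by which a read of mt-Nd3 or of the last part of mt-Co1 could be told from the nuclear copy, and the capitals mark the differing bases.
mt-Nd3, chrM:9459-9518, plus strand: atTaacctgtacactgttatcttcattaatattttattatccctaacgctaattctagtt
Gm28438, chr1:24652141-24652200, minus strand: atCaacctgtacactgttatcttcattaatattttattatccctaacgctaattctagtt
mt-Co1, chrM:6381-6440, plus strand: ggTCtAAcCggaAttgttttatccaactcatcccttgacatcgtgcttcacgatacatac
Gm29216, chr1:24655219-24655278, minus strand: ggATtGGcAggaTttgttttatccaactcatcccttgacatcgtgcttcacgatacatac
With positions counted from the 5′ end of the mitochondrial transcript and the mitochondrial base given first, the difference in the mt-Nd3 pair is T3C, and those in the mt-Co1 pair are T1056A, C1057T, A1059G, A1060G, C1062A and A1066T. From that point to the end of both copies the letters are the same.

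Genes of the mitochondrial genome also overlap each other. The end of mt-Atp8 and the start of mt-Atp6 share 43 bases, shown here in capitals because reads within them belong to both genes, and mt-Nd4l and mt-Nd4 share 7 bases.
mt-Atp8/mt-Atp6, chrM:7915-7981, plus strand: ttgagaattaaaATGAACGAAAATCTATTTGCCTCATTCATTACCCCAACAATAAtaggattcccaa
mt-Nd4l/mt-Nd4, chrM:10155-10185, plus strand: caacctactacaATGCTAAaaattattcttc
The ends of mt-Nd5 and mt-Nd6, which lie on opposite strands, overlap by 14 bases. Whether the counting used the strand of a read was not given in the sources used here, so reads in these 14 bases cannot be told apart. If the strand was not used, RNA read from the opposite strand anywhere along a gene would also be counted for that gene.

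Counts were divided between a mitochondrial gene and its nuclear copy in proportions that varied widely from mouse to mouse. For mt-Co2, a subunit of complex IV, between 53.5% and 90.3% of the summed count of the pair was on Gm28661. For mt-Atp6, a subunit of the ATP synthase, the share on Atp6-ps ran from 14.6% in male LL mouse 1 to 79.7% in male LL mouse 3. For mt-Nd3, a subunit of complex I, it ran from 11.0% to 83.5%. The other 4 pairs had smaller shares on the copy, with medians of 12.1% for mt-Co1, 11.9% for mt-Nd4, 9.05% for mt-Nd4l and 6.27% for mt-Co3. Gm10222 was at 0 in 8 libraries, Gm28439 in 4 and Gm28437 in 2, although these 3 copies reached 4402, 28377 and 39138 normalized counts in other libraries.

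**Figure D1:**
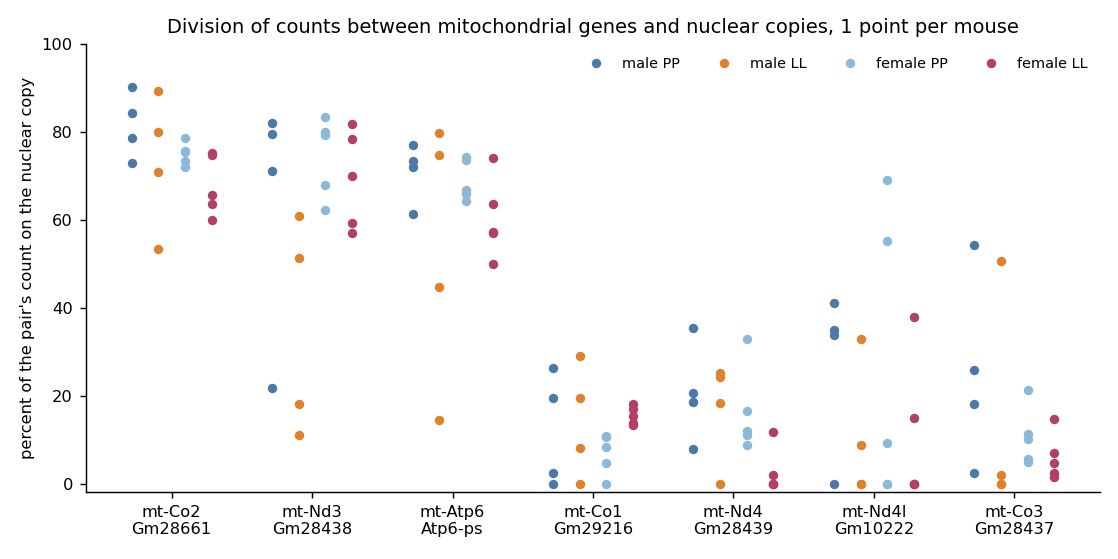
Share of the summed count of a mitochondrial gene and its nuclear copy that was on the copy (vertical axis, percent) for 7 pairs (horizontal axis), with 1 point per mouse coloured by group. The points of mt-Co2 lie between 53.5% and 90.3%, whereas those of mt-Nd3 spread from 11.0% to 83.5% and those of mt-Atp6 from 14.6% to 79.7%, and Gm10222 was at 0 in 8 of the 18 libraries.

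When the count of the copy was added to the mitochondrial gene, mice of one group lay closer together. The within-group SD of the log2 normalized count dropped from 0.71 to 0.25 for mt-Co2, from 0.66 to 0.26 for mt-Atp6, from 0.62 to 0.23 for mt-Nd3, from 0.65 to 0.38 for mt-Nd4l and from 0.42 to 0.22 for mt-Co3. It was also lower with the copy added for mt-Co1 (0.33 to 0.24) and mt-Nd4 (0.33 to 0.26). The 6 mRNA genes without such a copy (mt-Nd1, mt-Nd2, mt-Nd5, mt-Nd6, mt-Cytb and mt-Atp8) had SDs of 0.27 to 0.47. The genes are therefore given below as deposited and, for the 7 pairs, also as the sum of the pair.

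The order of the mRNA genes by level depended on how a level was expressed. mt-Atp8 and mt-Atp6, and mt-Nd4l and mt-Nd4, overlap in sequence and were ranked as separate genes. By normalized count per kb of transcript, mt-Co1 (complex IV) was first with a median of 120170 over the 18 mice, followed by mt-Co3 with 78381 and mt-Cytb (complex III) with 70458. With the copies added, mt-Atp6 moved from the sixth place to the first with a median of 143617 per kb, ahead of mt-Co1 with 134269 and mt-Co3 with 90728. The ranges of these genes over the mice overlapped, at 100550 to 215097 for mt-Atp6 and 101998 to 218383 for mt-Co1. By the deposited TPM, which divides by the effective length, the 204-base mt-Atp8 was first with a median of 32226 and mt-Co1 second with 20065. The lowest mRNA gene by count per kb as deposited was mt-Nd3, with a median of 7928, and with its copy added it had 24153 per kb and stood at the tenth place. The rRNAs came last on each of these scales, with 2458 counts per kb for mt-Rnr1 (12S rRNA gene) and 1979 for mt-Rnr2 (16S rRNA gene). In a cell these rRNAs are abundant, and whether rRNA was removed or poly(A) RNA was selected before sequencing was not given in the sources used here.

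**Figure D2:**
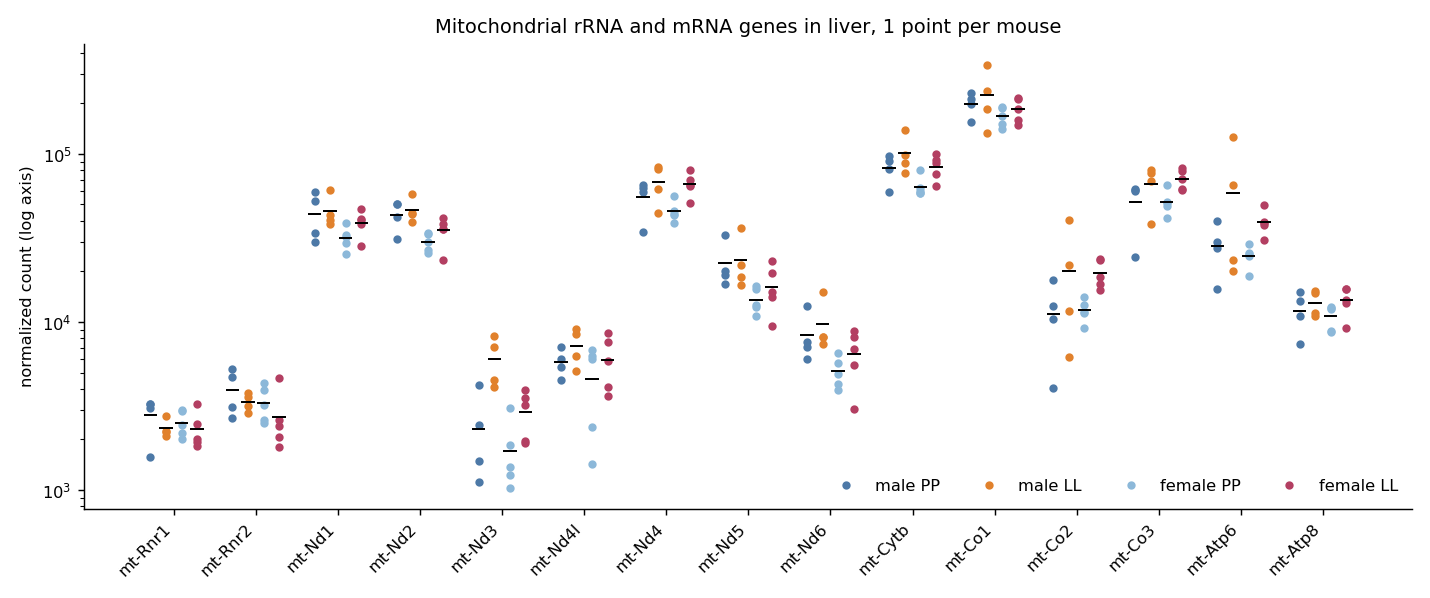
Normalized counts (vertical log axis) of the 2 rRNA and 13 mRNA genes (horizontal axis, ordered by complex) with 1 point per mouse, coloured by group, and a black bar at the group mean. mt-Co1 is the highest gene in every mouse, mt-Rnr1 and mt-Rnr2 reach 5269 at most, and male LL mouse 1 is the highest point of mt-Co1, mt-Co2 and mt-Atp6.

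To ask whether LL livers hold more or less mitochondrial RNA than PP livers of the same sex, the share of all estimated counts on the 37 genes was compared first. In male PP mice it was 8.51%, 8.78%, 10.03% and 10.6%, and in male LL mice 9.94%, 10.001%, 12.5% and 17.9%. The mean was 9.48% ± 1.00 (SD, n = 4) in male PP and 12.6% ± 3.72 (SD, n = 4) among male LL mice, a difference of 3.10 percentage points with an exact two-sided permutation p of 0.171, where 0.0286 is the smallest that 4 against 4 mice can give. The groups overlapped, and without male LL mouse 1 the difference was 1.34.

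In female PP mice the share was 9.07%, 9.57%, 9.83%, 10.4% and 12.0%, and in female LL mice 10.5%, 11.7%, 12.8%, 13.6% and 13.6%. The means were 10.2% ± 1.11 (SD, n = 5) and 12.4% ± 1.34 (SD, n = 5), which differ by 2.29 percentage points with an exact permutation p of 0.0317. Adjusted over the 24 comparisons of mitochondrial shares the p was 0.333, so that the female difference did not pass the correction (unadjusted exact permutation p = 0.0556 without any 1 of LL mice 1, 3 and 4 or PP mice 1, 2 and 5), and 2 of the 5 LL mice lay within the range of the PP mice. With the 7 copies counted as mitochondrial the shares rose to between 11.3% and 19.7%, the differences became 3.16 points for males and 2.81 for females, with exact permutation p-values of 0.0857 and 0.0476.

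Cell type markers were summed in the same groups, and their sums were not tested. The summed hepatocyte markers were 71125 to 93688 CPM in male PP and 96106 to 116351 among male LL mice, without overlap, and 157485 to 190137 among female PP and 134301 to 158304 among female LL mice, so that they lay higher in LL males and lower in LL females. The 5 Kupffer cell markers summed to 67.1 to 162 CPM in male PP and 61.8 to 134 among male LL mice, with overlap. In females they summed to 157 to 202 CPM in PP and 92.1 to 152 in LL mice, without overlap (means 180 and 132). The 5 stellate cell markers summed to 40.4 to 105 CPM in male PP, 80.3 to 136 among male LL, 144 to 193 for female PP and 76.6 to 185 among female LL mice. For the 5 endothelial markers the sums were 23.5 to 50.8, 37.9 to 46.8, 57.4 to 122 and 44.1 to 85.0 CPM in the same order, and for the 5 erythroid markers 326 to 909, 173 to 717, 282 to 494 and 242 to 1229. By their means, stellate cell markers were higher in LL males (105 against 63.5 CPM), endothelial markers lower in LL females (60.4 against 88.8) and erythroid markers higher in LL females (803 against 369), each with overlap. The cholangiocyte markers, of which 1 of 5 reached 10 counts, stood at 13.3 to 18.9 CPM in male PP and 9.94 to 13.1 among male LL mice without overlap, and at 11.6 to 27.6 with overlap in females. The lymphocyte markers, likewise with 1 of 5 at 10 counts, stood at 2.59 to 10.9 CPM over all groups. The part of these, and of fragment length described below, in the mitochondrial shares was not tested, and in whole liver fewer cells of a type and less RNA per cell cannot be told apart.

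In fits across all 10938 genes that passed a limit of 10 counts in at least 4 libraries, 15 of the 37 genes were tested, the 13 mRNA genes and the 2 rRNA genes. None of the 15 was called in male LL against male PP mice by DESeq2 (adjusted P below 0.05, and a ratio of LL to PP that is 1.3 or more, or 0.7 or less), where 0.283% of all genes were called, and none in female LL against female PP mice, where 0.658% were called. At an unadjusted p below 0.05, 2 of the 15 (mt-Nd3 and mt-Atp6) were higher in male LL mice and 3 (mt-Nd4, mt-Cytb and mt-Co3) in female LL mice, against 3.84% and 6.65% of all genes, and 0 were lower in either sex. By edgeR 0 were called in either sex (0.0274% of all genes in males and 0.0274% in females) and the counts that were higher at an unadjusted p below 0.05 were also 2 and 3, against 4.00% and 6.37% of all genes. All 13 mRNA genes had log2 fold changes above 0 in both sexes, and both rRNA genes had log2 fold changes below 0. The median over the 15 genes was 0.23 in males and 0.35 in females, beside 0.00 and 0.01 over all genes. The mRNAs share precursors and libraries and are not independent of each other. The difference between the sexes in the genotype contrast (interaction) was called for 0 of the 15 genes by DESeq2 and by edgeR, with 0 at an unadjusted p below 0.05 by either (5.67% of all genes by DESeq2 and 6.18% by edgeR), and 0.119% of all genes were called there by DESeq2.

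**Figure D3:**
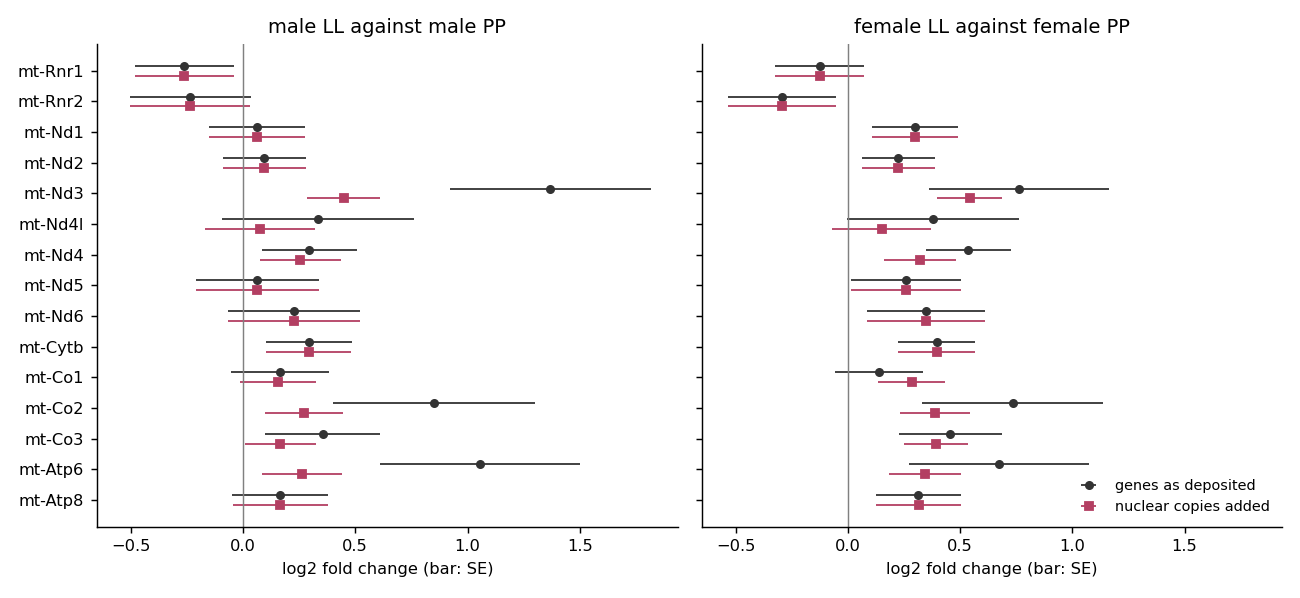
DESeq2 log2 fold changes (horizontal axis) of 15 genes (vertical axis) in male and female LL against PP mice with their SE as bars, for the genes as deposited (circles) and with nuclear copies added (squares). The mRNAs lie to the right of 0 and the rRNAs to the left in both panels, and the bars of mt-Nd3, mt-Co2 and mt-Atp6 are shorter with the copy added.

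Among the complex I subunits, mt-Nd3 (ENSMUSG00000064360.1, chrM:9459-9806, plus strand) had the largest genotype difference as deposited. Its normalized counts were 1114, 1498, 2445 and 4204 in male PP and 4080, 4509, 7075 and 8260 among male LL mice. In females they were 1033, 1236, 1373, 1857 and 3073 in PP and 1905, 1968, 3192, 3518 and 3948 in LL mice. LL mice were mostly higher, and the groups overlapped in both sexes. The log2 fold change was 1.37 with an SE of 0.45 in males (adjusted P = 0.119, DESeq2) and 0.76 with an SE of 0.40 in females (adjusted P = 0.353). Without male PP mouse 2 the male value was 1.83 and the gene was called (adjusted P = 0.000745, DESeq2). The share of all genes called in that fit is not given here.

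The sum of mt-Nd3 and Gm28438 was steadier. It was 5373, 5468, 8344 and 8466 in male PP and 7946, 9255, 10076 and 10439 among male LL mice. In females it was 5806, 6172, 6250, 6612 and 8137 in PP and 8626, 8846, 9177, 10630 and 10795 in LL mice, so that all female LL mice were above all female PP mice, beside 1.50% of all genes that were higher without overlap as deposited. The log2 fold change of the sum was 0.45 with an SE of 0.16 in males (adjusted P = 0.181) and 0.54 with an SE of 0.14 in females (adjusted P = 0.0253, DESeq2), the 1 call among the 15 genes in that fit, where 0.704% of all genes were called beside 0.274% in males. The female call was lost with edgeR (adjusted P = 0.199), with fragment length as a term (0.563) and in 6 of the 10 fits that left out 1 female mouse (PP mice 1, 2, 3 and 5 and LL mice 1 and 4), where adjusted P reached 0.147. It held with another scaling between libraries (TMM, adjusted P = 0.0306, DESeq2) and with only the females fitted (0.00333). Counted relative to the summed mitochondrial and copy counts, the log2 fold change of the sum was 0.28 in males and 0.23 in females (adjusted P = 0.785 and 0.305).

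mt-Nd2 (ENSMUSG00000064345.1, chrM:3914-4951, plus strand), another complex I subunit and one without such a copy, differed little between genotypes. It had 31109, 41897, 50059 and 50287 normalized counts in male PP and 39212, 43963, 44323 and 57720 among male LL mice. Female PP mice had 25679, 26918, 29794, 33330 and 34049, and female LL mice 23509, 35731, 35868, 38366 and 41649. The genotype groups overlapped in both sexes, with log2 fold changes of 0.10 and 0.23 and SEs of 0.18 and 0.16. mt-Nd1 likewise had 0.06 and 0.30, and mt-Nd5 0.06 and 0.26. None of these had an unadjusted p below 0.05. In males the values of mt-Nd1, mt-Nd2, mt-Nd5, mt-Nd6 and mt-Co1 were below 0 without male LL mouse 1. Those of mt-Nd1, mt-Nd2 and mt-Nd5 also turned without other males, and kept their sign in 5, 6 and 5 of 8 such fits.

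Among the complex I genes as deposited, the largest difference by its SE in females was that of mt-Nd4 (ENSMUSG00000064363.1, chrM:10167-11544). The female PP mice showed 38557, 43119, 44163, 45709 and 56422 normalized counts, and female LL mice 51100, 64352, 65219, 70119 and 80018. Only 1 LL mouse lay within the PP range, and the log2 fold change was 0.54 with an SE of 0.19 (unadjusted p = 0.00484, adjusted P = 0.135, DESeq2). With fragment length as a term, described below, the log2 fold change of mt-Nd4 was 0.24 (SE 0.19) in females, and in males it was 0.07 (SE 0.19) beside 0.30 (SE 0.21) without the term. The share of the pair on its copy Gm28439 was 8.77% to 32.9% in female PP and 0% to 11.8% among female LL mice, and with the copy added the log2 fold change was 0.32. mt-Nd4l had log2 fold changes of 0.33 in males and 0.38 in females as deposited, and of 0.08 and 0.15 with its copy added.

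mt-Nd6 (ENSMUSG00000064368.1, chrM:13552-14070, minus strand) is the only mRNA of the light-strand precursor. Its normalized counts were 5983, 7079, 7641 and 12521 in male PP and 7421, 8159, 8172 and 15104 among male LL mice. In females they were 3948, 4285, 4904, 5728 and 6523 in PP and 3046, 5543, 6859, 8080 and 8822 in LL mice. The groups overlapped, with log2 fold changes of 0.23 (SE 0.29) and 0.35 (SE 0.26). Per 100 counts of its neighbour mt-Nd5 on the other strand, mt-Nd6 had 37.3 in male PP, 42.2 among male LL, 37.7 for female PP and 39.4 among female LL mice on average, and neither genotype difference was larger than the spread (exact permutation p = 0.314 and 0.556). Since use of the strand was not given, counts of mt-Nd6 may include reads of plus-strand RNA.

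mt-Cytb (chrM:14145-15288), the one mitochondrial subunit of complex III, had 59520, 81485, 90376 and 97598 normalized counts in male PP and 77381, 88171, 98941 and 138444 among male LL mice. Among females, PP mice had 58270, 58841, 60084, 62641 and 79723, and female LL mice 64038, 76343, 88399, 91433 and 100097. The groups overlapped in both sexes. The log2 fold change was 0.29 (SE 0.19) in males and 0.40 (SE 0.17, unadjusted p = 0.0204, adjusted P = 0.237, DESeq2) in females.

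In complex IV, mt-Co1 (ENSMUSG00000064351.1, chrM:5328-6872, plus strand), the catalytic subunit, had the highest normalized count of the 15 genes as deposited. It had 155396, 198118, 211726 and 229368 normalized counts in male PP and 132602, 183726, 236886 and 337414 among male LL mice. In females, PP mice had 141009, 150157, 167236, 186790 and 190816, and female LL mice 148538, 159433, 184536, 212988 and 216332. Its log2 fold changes were the smallest of the 3 complex IV mRNAs, 0.16 (SE 0.22) in males and 0.14 (SE 0.20) in females. The share of the pair on Gm29216 was 13.4% to 18.1% in female LL mice and 0.00718% to 10.8% in female PP mice, which do not overlap, and with the copy added the female log2 fold change was 0.28 (SE 0.15).

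mt-Co2 (ENSMUSG00000064354.1, chrM:7013-7696) had 4037, 10427, 12371 and 17783 normalized counts in male PP and 6180, 11648, 21930 and 40684 among male LL mice. Female PP livers held 9238, 11277, 11530, 12621 and 14041, and female LL mice 15460, 16723, 18455, 23419 and 23640. As deposited, female LL mice were all above female PP mice, as they were for mt-Atp6, and 1.50% of all genes were higher in female LL mice without overlap. With the copies added both genes overlapped. The sum for mt-Co2 was 42981 to 57798 in female PP and 48804 to 74296 in female LL mice, and that for mt-Atp6 was 72374 to 97889 and 78797 to 118903. The log2 fold changes of mt-Co2 were 0.85 (SE 0.45, adjusted P = 0.466, DESeq2) and 0.73 (SE 0.40, adjusted P = 0.378), and with Gm28661 added they were 0.27 and 0.39. mt-Co3 (chrM:8607-9390) had log2 fold changes of 0.35 and 0.46 (female unadjusted p = 0.0454, adjusted P = 0.325, DESeq2), and of 0.17 and 0.39 with Gm28437 added.

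In complex V, mt-Atp6 (ENSMUSG00000064357.1, chrM:7927-8607) had 15705, 27415, 29819 and 39647 normalized counts in male PP and 20221, 23402, 65136 and 125143 among male LL mice. PP females had 18815, 24674, 25301, 25825 and 28981, and female LL mice 30839, 37970, 38911, 39484 and 49919. The male difference rested on 2 of the 4 LL mice, and in male LL mouse 1, the highest, 14.6% of the pair was on Atp6-ps beside 44.7% to 79.7% in the other male LL mice. The log2 fold change was 1.05 (SE 0.45, adjusted P = 0.312) in males and 0.67 (SE 0.40, adjusted P = 0.422) in females, and with Atp6-ps added 0.26 (SE 0.18) and 0.34 (SE 0.16). Without male LL mouse 1 the male log2 fold change of mt-Atp6 was 0.37. Without male LL mouse 3 it was 1.34 and the gene was called (adjusted P = 0.0155, DESeq2). The share of all genes called in that last fit is not given here. mt-Atp8, a short accessory subunit, had 0.17 and 0.31. When the 2 groups of females were fitted without the males, mt-Co2, mt-Atp6 and mt-Nd4 were called (adjusted P = 0.00242, 0.00305 and 0.0248, DESeq2, where 0.905% of all genes were called). These calls were on the genes as deposited. With the copies added, none of them was called in that fit, and mt-Nd3 was the 1 mitochondrial gene called (adjusted P = 0.00333, DESeq2). The share of all genes called in the females with the copies added is not given here.

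The rRNAs were the only tested genes of the mitochondrial genome with values below 0 in both genotype contrasts. mt-Rnr1 (ENSMUSG00000064337.1, chrM:70-1024) had 1561, 3087, 3239 and 3259 normalized counts in male PP and 2098, 2202, 2253 and 2742 among male LL mice. In females it had 2001, 2169, 2443, 2932 and 2975 in PP and 1839, 1938, 2010, 2463 and 3227 in LL mice. The groups overlapped, and the log2 fold changes were -0.26 (SE 0.22) and -0.13 (SE 0.20).

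mt-Rnr2 (ENSMUSG00000064339.1, chrM:1094-2675) had 2671, 3119, 4699 and 5269 normalized counts in male PP and 2856, 3143, 3587 and 3800 among male LL mice. In females it had 2505, 2592, 3196, 3951 and 4332 in PP and 1798, 2065, 2408, 2606 and 4648 in LL mice. Female LL mouse 4 was above all PP mice while the other 4 LL mice lay below the middle PP mouse, and the log2 fold changes were -0.24 (SE 0.27) and -0.29 (SE 0.24). As a share of the mitochondrial counts the rRNAs made up 1.18% ± 0.304 (SD, n = 4) in male PP and 0.897% ± 0.351 (SD, n = 4) among male LL mice (exact permutation p = 0.286). For females the shares were 1.28% ± 0.392 (SD, n = 5) with genotype PP and 0.851% ± 0.253 (SD, n = 5) with genotype LL (exact permutation p = 0.0714, 0.0317 without female PP mouse 4 and 0.0476 without female LL mouse 4). As a share of all counts the rRNAs differed less, with 0.111% in male PP, 0.104% among male LL, 0.127% for female PP and 0.105% among female LL mice (exact permutation p = 0.771 in males and 0.302 in females).

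The tRNA genes, 59 to 75 bases long, were close to the limit of detection. Of the 22, 12 were at 0 counts in every library (mt-Tf, mt-Tv, mt-Tw, mt-Ta, mt-Ty, mt-Td, mt-Tk, mt-Tr, mt-Th, mt-Ts2, mt-Tl2 and mt-Tt), which allows up to 0.454 to 0.791 CPM depending on the library. The other 10 summed to 114 counts over the 18 livers. mt-Ts1, a tRNA for serine annotated on the minus strand next to the end of mt-Co1, gave 56 of these, with up to 8 in a library, and its sequence is shown because it carried the most tRNA counts.
mt-Ts1, chrM:6870-6938, minus strand: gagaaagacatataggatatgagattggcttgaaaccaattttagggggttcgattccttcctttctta
mt-Te followed with 25 counts, mt-Tn with 9, mt-Tp with 8, mt-Tq with 5, mt-Tm with 4, mt-Tc with 3, mt-Ti with 2, and mt-Tl1 and mt-Tg with 1 each. Of the 10 tRNA genes with a count, 6 lie on the minus strand, opposite to most mRNAs. Since use of the strand was not given, the counts of these 6 may include reads of plus-strand RNA. Summed tRNA counts per library were 0 to 7 in male PP, 1 to 6 among male LL, 2 to 11 for female PP and 4 to 16 among female LL mice, with overlap between genotypes in both sexes (exact permutation p = 0.686 in males and 0.532 in females). They were higher in female LL than in male LL mice (means 9.60 and 2.75, exact permutation p = 0.0317), with overlap and at counts too low for a level.

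Within the mitochondrial and copy counts the complexes kept similar shares in all groups. Complex IV mRNAs made up 46.7% to 48.1% of the counts as group means, complex I 24.4% to 26.8%, complex V 14.2% to 15.5% and complex III 10.8% to 11.7%. The mean complex III share was 0.56 points higher in female LL than in female PP mice (exact permutation p = 0.0317). In males it was 0.74 points higher in LL mice (exact permutation p = 0.114). The complex I share was 1.88 points lower in female than in male mice of genotype PP (exact permutation p = 0.0159) and the complex V share 1.14 points higher (exact permutation p = 0.0317). These p-values are unadjusted, and each of these groups overlapped.

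Between the sexes, the direction for the mitochondrial mRNAs turned with the scaling. By DESeq2's size factors 13 of the 15 genes had log2 fold changes below 0 in female PP against male PP mice, with a median of -0.28 beside 0.00 over all genes, whereas as a share of all counts the 37 genes were at 10.2% in female PP and 9.48% among male PP mice (ratio 1.07, exact permutation p = 0.381). Relative to the summed mitochondrial and copy counts the median was 0.01. That scaling divides by the sum of these same genes and their copies, so this median could hardly move and shows no direction. When the 10 most abundant nuclear genes were left out of the total, the share was 13.1% for female PP and 13.0% among male PP mice (ratio 1.01, exact permutation p = 0.937). mt-Nd2 was the 1 gene called in female PP against male PP mice, lower by a log2 fold change of -0.53 (SE 0.17, adjusted P = 0.0353, DESeq2), where 6.45% of all genes were called. The call was lost by edgeR (adjusted P = 0.103), with fragment length as a term (0.0546) and in the fits that left out male PP mouse 1, 2 or 3 or female PP mouse 1, 2 or 5 (adjusted P of at most 0.180), and relative to the mitochondrial counts the log2 fold change was -0.19 (adjusted P = 0.299). mt-Nd5 was lower in every female PP than in every male PP mouse, at 10889 to 16449 against 16869 to 33091 normalized counts (log2 fold change -0.72, SE 0.26, adjusted P = 0.0699, DESeq2), where 4.53% of all genes were lower without overlap. At an unadjusted p below 0.05, 5 of the 15 genes were lower in female PP mice, against 8.28% of all genes, and by edgeR 4 were, against 8.80% of all genes. By edgeR 0 of the 15 were called, where 5.24% of all genes were called. With the LL mice left out of the fit, mt-Nd2, mt-Nd5 and mt-Nd6 were called lower (adjusted P = 0.0161, 0.00744 and 0.0170, DESeq2), where 7.25% of all genes were called. mt-Nd6 had -0.71 (SE 0.28, adjusted P = 0.111) over all mice and mt-Nd1 -0.47 (SE 0.20, adjusted P = 0.168).

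Between LL mice of the 2 sexes 0 of the 15 genes were called by DESeq2 or by edgeR, where 6.12% of all genes were called by DESeq2 and 4.28% by edgeR. At an unadjusted p below 0.05, 4 were lower in female LL mice by DESeq2 (mt-Nd2, mt-Nd3, mt-Nd5 and mt-Nd6, against 9.61% of all genes) and 2 by edgeR (against 10.6%). The median log2 fold change was -0.27, and the mitochondrial share was 12.4% in female LL and 12.6% in male LL mice (exact permutation p = 0.960). mt-Nd3 as deposited was lower in every female LL mouse (1905 to 3948 normalized counts) than in every male LL mouse (4080 to 8260), where 4.53% of all genes were lower without overlap, but the sum with its copy overlapped, at 8626 to 10795 and 7946 to 10439. With the PP mice left out of the fit mt-Nd3 was called (adjusted P = 0.00764, DESeq2), where 4.67% of all genes were called. Of the marker sums given above, those of hepatocytes, stellate cells and endothelial cells were higher in every female PP than in every male PP mouse, and those of Kupffer cells were mostly higher with overlap. Among LL mice the hepatocyte sum was higher in every female and the other 3 overlapped. The part of these markers in the sex differences was not tested.

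The libraries also differed in fragment length, taken as the transcript length less the effective length over transcripts of at least 3000 bases. It was 518 ± 95.7 bases (SD, n = 4) in male PP, 407 ± 156 (SD, n = 4) among male LL, 448 ± 108 (SD, n = 5) for female PP mice and 292 ± 52.1 (SD, n = 5) among female LL mice. Female LL libraries had 247 to 377 bases and female PP libraries 369 to 631, and only female LL mouse 3 lay within the female PP range. Across the 18 libraries the mitochondrial share of counts went with fragment length at Pearson's r = -0.41 (permutation p = 0.0906, adjusted over 6 relations 0.148) and Spearman's rho = -0.52 (permutation p = 0.0295). Without the 2 libraries farthest from the median length r was -0.32 (permutation p = 0.232). Without male LL mouse 1 r was -0.606 (permutation p = 0.0109). Within PP mice r was -0.20, within LL mice -0.11, and over deviations from the group means -0.12 (permutation p = 0.608, 0.768 and 0.626), all weaker than the pooled value. Within males it was -0.41 and within females -0.46 (permutation p = 0.297 and 0.183).

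**Figure D4:**
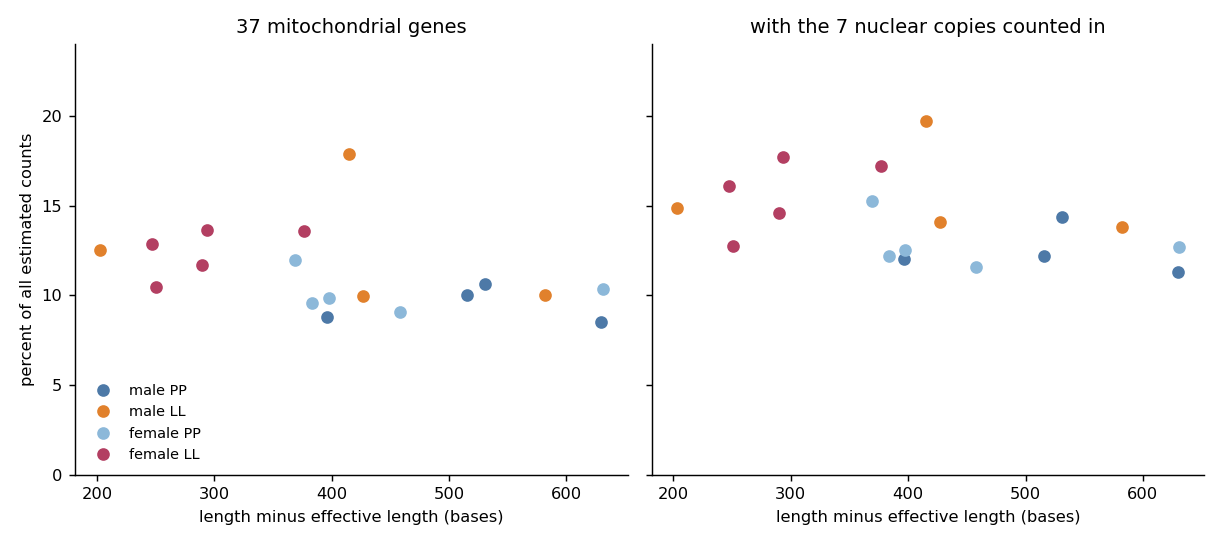
Share of all estimated counts on the 37 mitochondrial genes (left) and with the 7 nuclear copies counted in (right), as percent on the vertical axis, against the fragment length of the library in bases on the horizontal axis, 1 point per mouse coloured by group. The female LL libraries stand at 247 to 377 bases with shares of 10.5% to 13.6% in the left panel, and male LL mouse 1 stands highest at 17.9%.

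In a fit with fragment length as a term beside the groups, 0 of the 15 genes had a called slope by DESeq2 or edgeR, where 0.0457% of all genes were called by DESeq2, and 1 had an unadjusted p below 0.05 by either tool (4.42% of all genes by DESeq2 and 4.81% by edgeR). That gene was mt-Nd4, with a log2 change of -0.20 per 100 bases (SE 0.06, unadjusted p = 0.00155, adjusted P = 0.409, DESeq2). With the copies added 0 of the 15 slopes had an unadjusted p below 0.05 by DESeq2, against 4.40% of all genes. With the term in the fit the genotype medians over the 15 genes were 0.15 in males and 0.29 in females, and none was called. The female values of mt-Co2 and mt-Atp6 were each 0.40 with the term, beside 0.73 and 0.67 without it, and those of mt-Rnr1 and mt-Rnr2 were -0.23 and -0.45, beside -0.13 and -0.29.

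The effective length of the short mitochondrial transcripts, by which TPM divides the count, differed most between libraries and did not follow the fragment length above. That of mt-Atp8 (204 bases) ran from 18.1 bases in male PP mouse 3 to 99.1 in female LL mouse 1, a ratio of 5.48, and that of mt-Nd4l (297 bases) from 28.5 in female PP mouse 1 (fragment length 458 bases) to 145 in male LL mouse 4 (582 bases), a ratio of 5.08. In male LL mouse 2, with the shortest fragments (203 bases), mt-Atp8 had 41.8, and in male PP mouse 4 (630 bases) it had 54.8. For mt-Nd5 (1824 bases) the ratio between libraries was 1.36 and for mt-Co1 1.47. Equal counts of mt-Atp8 gave TPM values several times apart. The share of the TPM on the 37 genes was 11.4% ± 1.84 (SD, n = 4) in male PP, 16.6% ± 6.55 (SD, n = 4) among male LL, 14.8% ± 2.92 (SD, n = 5) for female PP and 16.7% ± 2.39 (SD, n = 5) among female LL mice (exact permutation p = 0.229 for males and 0.302 for females). With the copies counted as mitochondrial it was 17.4% in male PP and 23.5% among male LL mice, without overlap (exact permutation p = 0.0286, the smallest possible, and 0.333 adjusted over the 24 comparisons). When the effective length was used to scale the counts in the fit, the male log2 fold changes of mt-Atp8 and mt-Nd4l turned to -0.58 and -0.51 from 0.17 and 0.33, and 0 of the 15 genes were called.

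**Figure D5:**
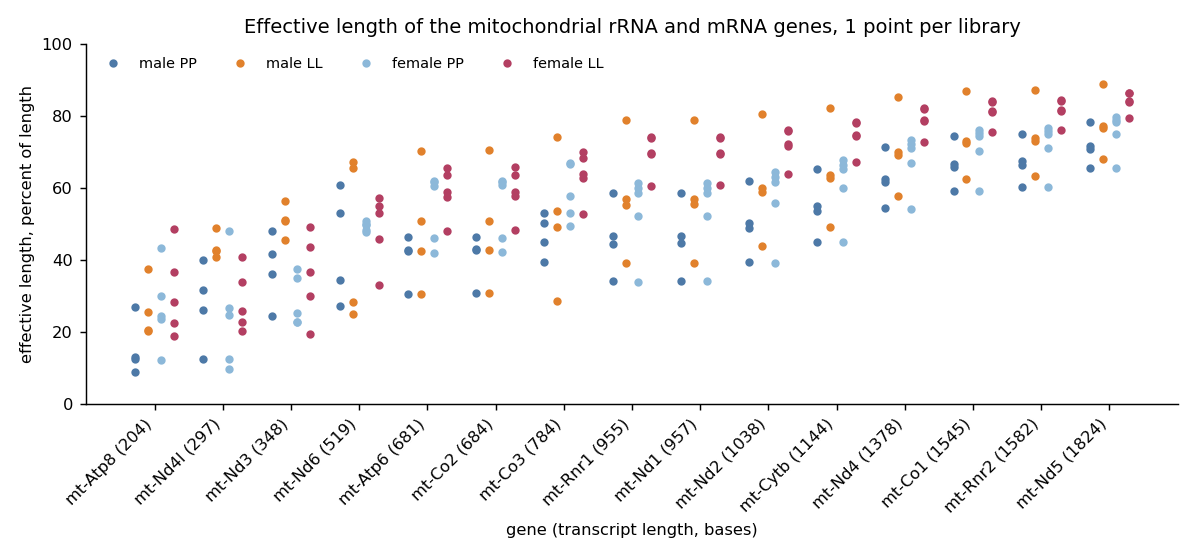
Effective length as percent of transcript length (vertical axis) for the 15 genes ordered by transcript length in bases (horizontal axis), 1 point per library coloured by group. The points of mt-Atp8 span 18.1 to 99.1 of its 204 bases, and those of mt-Nd5 lie within a ratio of 1.36.

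Nuclear genes that act on mitochondrial DNA or RNA, together with regulators of mitochondrial biogenesis such as Pprc1, were read from a list of 43. Of this list 41 passed the count limit. None of the 41 was called by DESeq2 in male or in female LL against PP mice (0.283% and 0.658% of all genes), and 2 (Mterf2 and Pprc1) and 4 (Lrpprc, Hsd17b10, Mterf1a and Mterf2) had an unadjusted p below 0.05, against 7.83% and 13.0% of all genes. Only 9 of them had an adjusted P in males, since DESeq2 set the others aside for low counts, and 37 in females. Polrmt, the mitochondrial RNA polymerase, had 12 to 50 normalized counts over all mice and log2 fold changes of -0.46 (SE 0.31) in males and -0.03 (SE 0.25) in females. Tfam, which packs and activates the mitochondrial genome, had 0.27 (SE 0.15) and 0.13 (SE 0.13).

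Lrpprc, which together with Slirp stabilises mitochondrial mRNAs, had 437, 445, 447 and 463 normalized counts in male PP and 416, 440, 453 and 477 among male LL mice. The PP females held 366, 400, 410, 417 and 464, and female LL mice 281, 285, 334, 367 and 416. The female LL mice lay lower with overlap (log2 fold change -0.29, SE 0.11, unadjusted p = 0.00896, adjusted P = 0.172, DESeq2), while the male values were alike (-0.01, SE 0.12). Slirp had -0.01 (SE 0.23) in males and 0.32 (SE 0.20) in females. Between the sexes 3 of the 41 were called, all lower in female than in male mice of genotype PP: Hsd17b10, a subunit of the mitochondrial RNase P (-0.56, SE 0.14, adjusted P = 0.00172, DESeq2), Rexo2, an oligoribonuclease (-0.58, SE 0.13, adjusted P = 0.000483), and Trit1, which modifies tRNAs (-0.68, SE 0.23, adjusted P = 0.0404). Fastkd1 was called lower in female LL than in male LL mice (-0.56, SE 0.17, adjusted P = 0.0223), and 6.45% and 6.12% of all genes were called in these contrasts.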

How the data were processed

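The deposited tables came from livers of 18 mice, and the authors assigned reads to GENCODE mouse transcripts (release M26, GRCm39) with Salmon. The submitters' processing notes name Salmon 1.4.0 and FastQC. The estimated counts deposited by the authors are not scaled between libraries, the TPM values deposited by the authors are counts divided by effective length and set to 1 sum in every library, and the deposited effective length is in bases. Sequencing layout, strandedness and rRNA removal were not given in the sources used here. Salmon shares reads that match several transcripts, so that reads of a mitochondrial gene can be placed on a nuclear copy. Transcripts were joined to genes by the M39 annotation (137570 of 139225), and sequences were read from the GRCm39 genome.

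Estimated counts were summed per gene and rounded. Genes with 10 counts in at least 4 libraries (10938) were fitted over all 18 libraries by group with DESeq2 1.42.0, after the authors, and by edgeR 4.0.16 (quasi-likelihood) in R 4.3.3, and p-values were adjusted by Benjamini and Hochberg over all genes tested. The fits were tested on simulated data. Shares were compared by exact two-sided permutation tests, and correlations by 100000 permutations (Python 3.11.15, numpy 2.4.6). Copies were nuclear genes with at least 50% of their 31-base words in mitochondrial transcripts. The rule for named genes took all 37 members, with values in every mouse for mt-Rnr1, mt-Rnr2, mt-Nd6, mt-Co1 and called members, nuclear copies that passed the count limit, and Polrmt, Tfam, Lrpprc and Slirp. Per-mouse values of other members and Lrpprc, and the other machinery genes, were chosen after their values were seen. Members and lists were chosen with earlier results of these data known. Replicates of a group differed by far more than sampling noise (chi-square per degree of freedom 11.1 to 93.1). Nothing says whether mice shared cages or litters, so p-values measure the spread between these samples. Alternatives were another tool, scaling, filter, covariates, added copies and leaving out each mouse. Intervals and limits for counts of 0 (3 counts) cover counting error only.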

Additional observations from a re-analysis of the deposited data

Results flagged for a closer look

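Each group was searched for a mouse far from the others in the mitochondrial shares of counts and TPM, the rRNA share and the 15 tested genes. Of these 72 searches 5 found one by Dixon's ratio, and chance flags about 1 in 20 groups. Male PP mouse 4 was low for mt-Rnr1, with 1561 normalized counts against 3087 to 3259 in the other male PP mice, and for mt-Co3, with 24179 against 60096 to 61890. For mt-Co3, 54.2% of the pair was on Gm28437 in this mouse, and the summed count of 52759 compares with 61656 to 83454 in the other male PP mice. Male LL mouse 1 was high for mt-Nd6, with 15104 against 7421 to 8172. Female LL mouse 4 was high for mt-Rnr2, with 4648 against 1798 to 2606, and female PP mouse 4 was high for mt-Cytb, with 79723 against 58270 to 62641.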

How the results depend on the processing

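The number of the 15 tested genes that were called moved as follows. In female LL against PP mice it was 0, but 1 with nuclear copies added and 3 with only the groups compared. With both of these changes it was 1 (mt-Nd3). It was 0 to 2 when each mouse was left out in turn (2 without female PP mouse 4, mt-Nd3 and mt-Nd4). In male LL against PP mice it was 0 to 1 with a mouse left out (mt-Nd3 without male PP mouse 2, mt-Atp6 without male LL mouse 3). In female PP against male PP mice it was 1, but 0 with edgeR, with the effective length offset, with fragment length as a term and relative to the mitochondrial counts (a scaling chosen after seeing the data), 3 with only the groups compared and 0 to 2 with a mouse left out. In female LL against male LL mice it was 1 (mt-Nd3) with only the groups compared. For the fits with a mouse left out, with the effective length offset or with fragment length as a term, the share of all genes called is not given here. Their counts of called genes therefore have no background beside them. The causes were not tested.

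The mice were not treated as paired by replicate number, since deviations of same-numbered mice correlated at -0.17 to 0.16. These correlations cannot show whether mice shared a litter, cage or batch. With a replicate block 0 genes were called in female PP against male PP mice (mt-Nd2 adjusted P = 0.148, DESeq2), the sum of mt-Nd3 and Gm28438 in females had adjusted P = 0.0573, and no other call on the mitochondrial genes changed.

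The female genotype difference in the mitochondrial share was 0.738 percentage points over the 6 mRNA genes with little nuclear sequence (exact permutation p = 0.0952, chosen after seeing the data) and 1.99 to 2.78 with a mouse left out. Female PP less male PP turned to -0.146 over these 6 genes. Female LL less male LL turned to 0.0505 with copies counted and ran from -1.02 to 1.62 with a mouse left out. The male difference in the TPM share was 6.15 with copies counted, and the female difference in the rRNA share -0.539 to -0.315 with a mouse left out. The correlation with fragment length was -0.48 for the TPM share and -0.606 to -0.330 with a mouse left out. In males the effective length offset turned mt-Nd1 to -0.0732, mt-Atp8 to -0.58 and mt-Nd4l to -0.51. With a male left out, log2 fold changes ran from -0.108 to 0.242 for mt-Nd1, -0.0337 to 0.176 for mt-Nd2, -0.108 to 0.346 for mt-Co1, -0.231 to 0.317 for mt-Nd5 and -0.0697 to 0.494 for mt-Nd6.

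Counts of the tRNA genes were too low for a level, and whether depth, transcript length or library preparation set them was not tested. Groups of 4 or 5 mice and the division of reads between genes and copies limit the rest.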
